A study of Mus musculus with 4 samples.

Results

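The open chromatin around 10 genes of dietary fat absorption was followed in mouse intestinal stem cells: Fabp1 and Fabp2, Mogat2, Dgat1 and Dgat2, Mttp and Apob, and Apoa1, Apoa4 and Apoc3. Their regions were those that lay inside a gene or within 100 kb of it on the mm10 build, after peaks of the 4 libraries that overlapped by at least 1 bp had been merged. The rule for regions used position only, but the genes were chosen with earlier results of these data known. It took in 179 of the 119965 regions of the series and 10 of 21887 protein-coding genes, at 7 loci, because Apoa1, Apoc3 and Apoa4 lie side by side on chromosome 9 and Dgat2 and Mogat2 are neighbours on chromosome 7.

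The study asked how the regulatory landscape of Lgr5+ stem cells differs between the small and the large intestine, and ATAC-seq, which marks accessible DNA by the insertion of adapters with a transposase, was its assay here. Small-intestinal stem cells (SISC, 2 libraries) were sorted as Lgr5-EGFP+/CD24- cells and large-intestinal stem cells (LISC, 2 libraries) as Lgr5-EGFP+ cells, in both cases from crypts of untreated mice of 6 to 12 weeks. For SISC, gut next to the pylorus and next to the cecum was taken, and for LISC the large intestine from cecum to rectum. All mice carried the Lgr5-EGFP-IRES-creERT2 allele, in which Lgr5 drives EGFP and creERT2, so both groups share it, and a CD24 gate is named for SISC alone. Each library came from 50000 cells and 10 PCR cycles, and the labels leave out whether replicate libraries are different mice, so their spread, and any p-value built on it, may be technical.

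In the small intestine, fatty acids and monoacylglycerol enter enterocytes, are held by the cytosolic binding proteins FABP1 and FABP2, and are rebuilt into triglyceride by MOGAT2 and the DGAT enzymes. MTTP, the microsomal triglyceride transfer protein, then loads the triglyceride onto APOB, and the chylomicron that forms carries APOA1, APOA4 and APOC3 on its surface. Absorption belongs to the differentiated enterocytes of the villus, which descend from Lgr5+ crypt cells, whereas the colon absorbs little fat. An accessible region in a stem cell is not a measure of the transcript, which was not analysed here.

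The genes with a region at their start in SISC alone (Fabp1, Apoa4) and those with most SISC-alone regions nearest to their own ends (Mttp with 6, Apob with 5) are represented here by the bases before their annotated starts, from RefSeq on GRCm38.p6, whose coordinates are those of mm10. The stretches are chr6:71199629-71199878 for Fabp1, chr9:46240594-46240843 for Apoa4 and chr12:7977427-7977628 for Apob, all on the plus strand, and chr3:138143419-138143668 on the minus strand for Mttp. Each holds 250 bases, except that 48 bases of the Apob entry lie inside the span of the gene model and were left out, which leaves 202. Capitals mark matches to 4 motifs searched on both strands: GATAA for GATA factors, AAAGTCC for HNF4, GTTAAT for HNF1 and TTTATNG for CDX factors, all transcription factor families of the intestinal epithelium.
Fabp1: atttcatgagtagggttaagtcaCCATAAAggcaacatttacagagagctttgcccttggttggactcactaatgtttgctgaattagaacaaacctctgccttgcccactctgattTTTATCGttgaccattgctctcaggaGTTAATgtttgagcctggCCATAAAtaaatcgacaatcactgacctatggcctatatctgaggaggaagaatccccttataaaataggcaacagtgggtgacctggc
Apoa4: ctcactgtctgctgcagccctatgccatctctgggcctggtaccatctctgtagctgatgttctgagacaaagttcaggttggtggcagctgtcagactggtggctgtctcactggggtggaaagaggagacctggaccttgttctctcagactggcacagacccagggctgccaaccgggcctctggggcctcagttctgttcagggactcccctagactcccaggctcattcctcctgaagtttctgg
Apob: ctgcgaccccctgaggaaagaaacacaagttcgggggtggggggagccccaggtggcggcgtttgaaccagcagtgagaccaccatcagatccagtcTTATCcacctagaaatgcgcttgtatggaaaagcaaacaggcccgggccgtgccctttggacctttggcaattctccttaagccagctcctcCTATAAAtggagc
Mttp: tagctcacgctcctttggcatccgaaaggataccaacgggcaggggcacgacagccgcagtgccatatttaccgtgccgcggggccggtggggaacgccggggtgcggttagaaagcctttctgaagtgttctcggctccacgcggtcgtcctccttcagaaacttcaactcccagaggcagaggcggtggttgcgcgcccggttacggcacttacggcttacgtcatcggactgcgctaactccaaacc

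Fabp1 held 5 matches in its 250 bases. Counted in bases from the start, negative before it, CDX matches lay at -227 to -221, -133 to -127 and -89 to -83, the HNF1 match at -107 to -102, and the GATA match, read TTATC on this strand, at -132 to -128, inside the middle CDX match. Apob held a GATA match at -153 to -149 and a CDX match at -61 to -55, while the Apoa4 and Mttp stretches held none of the 4 motifs. Promoter entries were matched for 6 of the 10 genes, Apoa1 and Fabp2 being the other two, and not for Apoc3, Dgat1, Dgat2 or Mogat2. Over these 6, CDX letters were found in 3, GATA letters in 2, HNF1 letters in 1 and HNF4 letters in 0, against 9.81%, 22.6%, 6.43% and 3.58% of 32851 promoters for stretches of 250 bases. GC content was 42.8% for Fabp1, 57.6% for Apoa4, 55.2% for Apob and 61.2% for Mttp, beside a median of 52.4% over all promoters. A match is a run of letters and not a bound site.

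The peak lists held 83443 to 93220 peaks per library, and read depth is unknown, because no counts were used. A region absent from a list was not called, which does not show it to be closed, and in such bulk material fewer cells with an open site and a less open site per cell cannot be told apart. The −log10 q and fold enrichment of a peak are the authors' values and move with how deeply that library was sequenced, so they are compared between groups only as ranks. The start or finish of Lgr5, Ascl2 and Smoc2, which mark crypt stem cells, had a region within 1 kb in all 4 libraries. Of the other stem cell genes listed, Axin2 had one in SISC replicate 1 and LISC replicate 2 and Olfm4 in both SISC libraries alone, and none of the 3 immune genes Ptprc, Cd3e and Csf1r had one in any. Regions on the Y chromosome numbered 6 and 0 in SISC replicates 1 and 2 and 8 and 0 in LISC replicates 1 and 2, so replicate 1 of each group stood apart from replicate 2 in the same way.

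Around the lipid genes, more regions were called in the small-intestinal than in the large-intestinal stem cells. The windows held 129 and 151 regions in the SISC libraries and 113 and 116 in the LISC libraries, a mean of 140 ± 15.6 against 114.5 ± 2.12 (SD, n = 2 each). Both SISC libraries lay above both LISC libraries, by 25.5 regions on average, and the exact permutation test over the 4 libraries gave a two-sided p of 0.333, which is the smallest that 2 libraries against 2 allow. The covered length was 85.6 and 110 kb in SISC and 75.6 and 82.6 kb in LISC. Genome-wide the order was not the same: 78033 and 91060 regions were called in SISC and 86171 and 85723 in LISC, so that the lipid windows took 0.165% and 0.166% of a SISC library's regions and 0.131% and 0.135% of a LISC library's.

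Of the 179 regions, 30 (16.8%) were called in both SISC libraries and in neither LISC library, here termed SISC-only, beside 7.96% of all regions and 7.86% of those within 100 kb of any protein-coding gene. LISC-only regions, called in both LISC libraries and in neither SISC library, numbered 9 (5.03%), beside 10.2% of all regions and 9.40% near any gene. The share of SISC-only regions was thus above its background and that of LISC-only regions below it. A further 87 (48.6%) were called in all 4 libraries, close to the 48.2% of all regions, and 53 had another pattern, 36 of them called in a single library. Neighbouring genes share these windows: the nearest gene end belonged to 1 of the 10 genes for 63 of the 179 regions, for 16 of the 30 SISC-only regions and for 3 of the 9 LISC-only regions. Without SISC replicate 1, 48 regions met the SISC-only rule. LISC-only regions came to 14 without SISC replicate 2, to 18 without LISC replicate 1 and to 15 without LISC replicate 2. SISC-only regions were the more numerous each time, but the shares of all regions with a library left out are not given here. These counts therefore stand without a background.

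**Figure D1:**
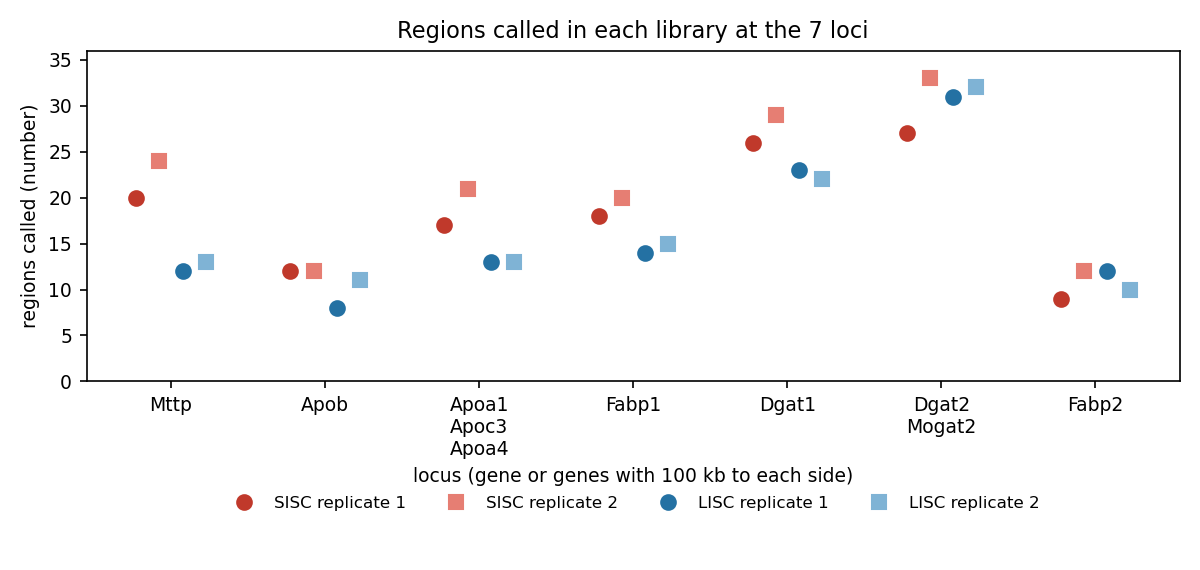
Number of regions called per library (vertical axis) within 100 kb of the lipid genes at each of the 7 loci, with 1 point per library, the SISC libraries in red and the LISC libraries in blue. Mttp had 20 and 24 regions in SISC and 12 and 13 in LISC. The groups also do not overlap at the Fabp1, Apoa1-Apoc3-Apoa4, Apob and Dgat1 loci, whereas they do at Fabp2 and Dgat2-Mogat2. The share of all genes without such overlap is not given here, so this description has no background.

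By gene, SISC-only regions outnumbered LISC-only ones around 7 of the 10 (Fabp1, Mttp, Apob, Dgat1 and the 3 genes of the chromosome 9 cluster), beside 34.5% of all protein-coding genes. LISC-only regions outnumbered SISC-only ones around 2 (Dgat2 and Mogat2), beside 32.2% of all genes, and Fabp2 had none of either. The median difference was 3 regions over the 10 genes and 0 over all genes. The 3 cluster genes share nearly all their regions and Dgat2 and Mogat2 share many, so the 10 genes are not 10 separate observations.

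**Figure D2:**
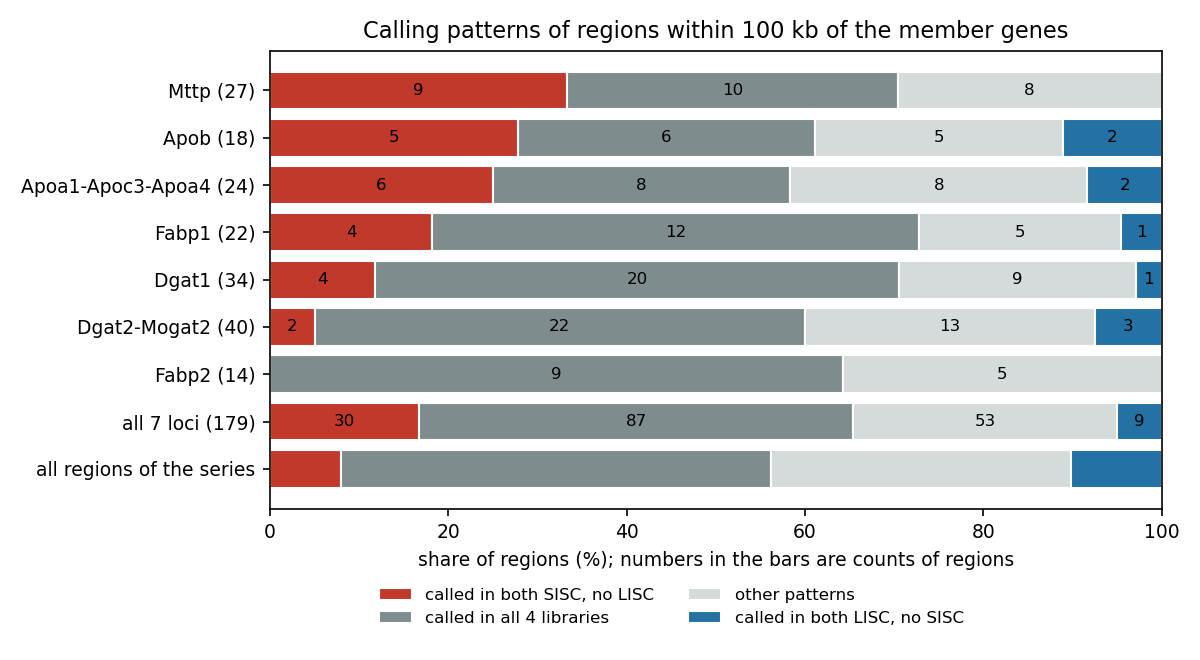
Share of regions in percent (horizontal axis) at each of the 7 loci, at all 7 together and in the whole series, split by the libraries that called them: SISC-only, all 4 libraries, another pattern, or LISC-only. Numbers in the bars are counts of regions. The Mttp locus has 9 SISC-only and 0 LISC-only regions, and the Dgat2-Mogat2 locus has 2 and 3.

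Fabp1 encodes the liver-type fatty acid binding protein, abundant in the proximal small intestine. Its start lay under a region of 622 bp, chr6:71199528-71200149, that was called in SISC replicates 1 and 2 with a −log10 q of 13.3 and 16.1 and in no LISC library. The summits, where each peak is highest, were at -152 and 30 bases from the start in SISC replicates 1 and 2, and both peaks cover the printed stretch with its CDX, GATA and HNF1 letters. A SISC-only region within 1 kb of either end was found for 2 of the 10 genes, Fabp1 and Apoa4, beside 1.38% of all protein-coding genes; with each list limited to its 41721 strongest peaks it was found for 0. A LISC-only region there was found for 0 of the 10, beside 0.694%, and the other 8 had a gene-end region in all 4 libraries, beside 62.1%.

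Within 100 kb, Fabp1 had 18 and 20 regions in SISC and 14 and 15 in LISC. Of its 22 regions, 4 were SISC-only and 1 was LISC-only, and 10.5% of all genes had at least as many SISC-only regions. The difference of 3 became 5 without SISC replicate 1 and 1 within 10 kb. The widest of these, chr6:71172521-71173538, lay 26.3 kb before the start with a −log10 q of 31.3 and 41.7 in SISC. The others were chr6:71148339-71148596 (12.7 and 16.7), which lies nearest to Thnsl2, and chr6:71298819-71299078 (4.59 and 19.8), inside Gm1070 at 93.8 kb beyond the gene. The LISC-only region, chr6:71302334-71302625, was inside Gm1070 too, with 9.62 and 6.43 in LISC. One region before Fabp1 ran the other way in rank. At chr6:71184508-71185805, 14.1 kb before the start, the −log10 q was 43.6 and 63.3 in SISC and 287 and 169 in LISC. All 4 libraries called it, and both LISC libraries ranked it above both SISC libraries, as set out below with the ranks.

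Fabp2 encodes the intestinal fatty acid binding protein, made in enterocytes of the small intestine and hardly elsewhere. Its start region, chr3:122894787-122895735, was present in every library, its −log10 q being 122 and 131 in SISC and 82.5 and 70.9 in LISC. Summits lay 270 and 242 bases after the start in SISC and 340 and 269 bases after it in LISC. The window held 9 and 12 regions in SISC and 12 and 10 in LISC, so the groups overlap. Its 14 regions held no SISC-only and no LISC-only one, 9 were shared by all 4 libraries, and the region near its finish, chr3:122898230-122898569, was called in SISC replicate 2 alone (13.3). Fabp1 and Fabp2, which bind the same cargo, therefore differed in these calls: group-only regions numbered 5 around Fabp1 and 0 around Fabp2.

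Mogat2 joins a fatty acid to monoacylglycerol and starts the pathway by which enterocytes resynthesise triglyceride, and Dgat2 and Dgat1 carry out its last step. The upper ends of all 3 genes had regions in every library. The −log10 q was 277 and 211 in SISC and 249 and 143 in LISC for Mogat2 (chr7:99237761-99239418), and 410 and 325 in SISC and 472 and 256 in LISC for Dgat2 (chr7:99181995-99183364). For Dgat1 (chr15:76510503-76512429) it was 562 and 396 in SISC and 609 and 338 in LISC. Each of these regions ranked at the 85.1 percentile or higher in every library among the regions called in all 4. None of the 3 enzymes thus had a gene end called in 1 group alone.

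The Dgat2-Mogat2 locus held 27 and 33 regions in SISC and 31 and 32 in LISC, which overlap. Of its 40 regions 22 were called in all 4 libraries, 2 were SISC-only and 3 were LISC-only. The SISC-only regions, chr7:99075168-99075915 (−log10 q of 11.9 and 10.9 in SISC) and chr7:99128487-99129325 (6.81 and 16.4), were both inside the neighbouring gene Uvrag. At least as many LISC-only regions as the 3 of Dgat2 were found around 20.0% of all genes. One LISC-only region, chr7:99154700-99155064, was inside Dgat2 (−log10 q of 5.11 and 9.65 in LISC), and the other two, chr7:99277509-99277924 (21.1 and 21.4) and chr7:99278550-99278938 (6.64 and 10.2), were inside Map6. For Dgat2 the difference, SISC-only minus LISC-only, was -1 and became 1 without SISC replicate 1, and for Mogat2 it was -2 and became 0, so neither direction is firm.

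Around Dgat1 the libraries had 26 and 29 regions in SISC and 23 and 22 in LISC. Its 4 SISC-only regions were chr15:76433837-76434549 (−log10 q of 14.0 and 6.79 in SISC), chr15:76490643-76491237 (11.2 and 16.4), chr15:76523457-76523729 (6.54 and 5.67) and chr15:76610116-76610623 (65.0 and 45.5). Their nearest gene ends were those of Bop1, Hsf1, Scrt1 and Slc39a4 in that order, and the first lay inside Mroh1 and the second inside Hsf1. The 1 LISC-only region around Dgat1, chr15:76586798-76587314 (23.7 and 8.70 in LISC), lay inside Adck5, with its nearest gene end that of Cpsf1. As around Fabp1, 10.5% of all genes had at least as many SISC-only regions, a share not adjusted for window size. The difference of 3 became 8 without SISC replicate 1. It became 0 within 10 kb, and 0 where the nearest gene end belonged to 1 of the 10 genes. The window is shared with 10 other genes. Only 1 of the 34 regions, the one at its own upper end, was nearest to Dgat1.

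Mttp, without whose product neither chylomicrons nor VLDL are secreted, had the most one-sided window. It held 20 and 24 regions in SISC and 12 and 13 in LISC. Both SISC libraries were above both LISC libraries, an order whose share over all genes is not given here. Of the 27 regions of the window 9 were SISC-only and 0 LISC-only. At least as many SISC-only regions within 100 kb were found for 0.311% of all protein-coding genes. That share is not adjusted for window size. Mttp spans 53.6 kb, and its 27 regions compare with a median of 20 over all genes. The difference of 9 stayed positive under every alternative that gives it and was lowest, at 3, with each list limited to its 41721 strongest peaks. Its start did not differ in that way: the region chr3:138143209-138145211, which also overlaps Trmt10a, had a −log10 q of 632 and 435 in SISC and 659 and 311 in LISC, with the summit at -334 bases from the start in every library. That region ranked at the 99.1 and 98.6 percentile in SISC and at the 99.1 and 98.4 percentile in LISC.

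Most of the SISC-only regions lay in the body of the gene, which held 10 of the 27 regions of the window. The share of all SISC-only regions that lie inside genes is not given here. Between 6.97 and 31.8 kb from its start, Mttp held 9 regions, of which SISC replicates 1 and 2 had 8 and 9 and LISC replicates 1 and 2 had 2 and 2. Of these, 6 were SISC-only, 2 were called in all 4 libraries and 1 in SISC replicate 2 alone. From the start inwards, the 6 were chr3:138136159-138136445 (−log10 q of 13.2 and 6.83 in SISC), chr3:138134533-138134847 (14.6 and 19.2), chr3:138127721-138128254 (43.1 and 23.2), chr3:138121489-138122319 (56.6 and 49.4), chr3:138120392-138120730 (25.0 and 21.2) and chr3:138111079-138111624 (4.59 and 5.95). The gene table gives spans and no exons, so these are placed inside the gene and not in an exon or intron. The other 3 SISC-only regions were outside it: chr3:138000429-138001175 (30.6 and 56.1) and chr3:138014615-138015264 (25.2 and 35.6) lay nearest to Dapp1, and chr3:138185245-138185848 (8.0 and 29.3) lay before the start, inside 4930579F01Rik.

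Both regions of the Mttp body that all 4 libraries called stood higher in SISC. At chr3:138133336-138134311, 9.11 kb from the start, the −log10 q was 140 and 123 in SISC and 7.21 and 6.43 in LISC. Its percentile among the regions called in all 4 libraries was 73.3 and 70.7 in SISC and 1.77 and 2.07 in LISC, a difference of 70.1 points and 37.0 points when ranked by fold enrichment. At chr3:138130690-138131589, 11.8 kb from the start, the −log10 q was 75.2 and 60.4 in SISC and 9.0 and 13.9 in LISC. The percentile there was 55.9 and 46.5 in SISC and 3.41 and 13.6 in LISC, a difference of 42.7 points that shrank to 0.68 points by fold, so this region's order rests on the measure used. At Mttp the start thus had close ranks in both groups, while the body held 6 of the 9 SISC-only regions and both of these.

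**Figure D3:**
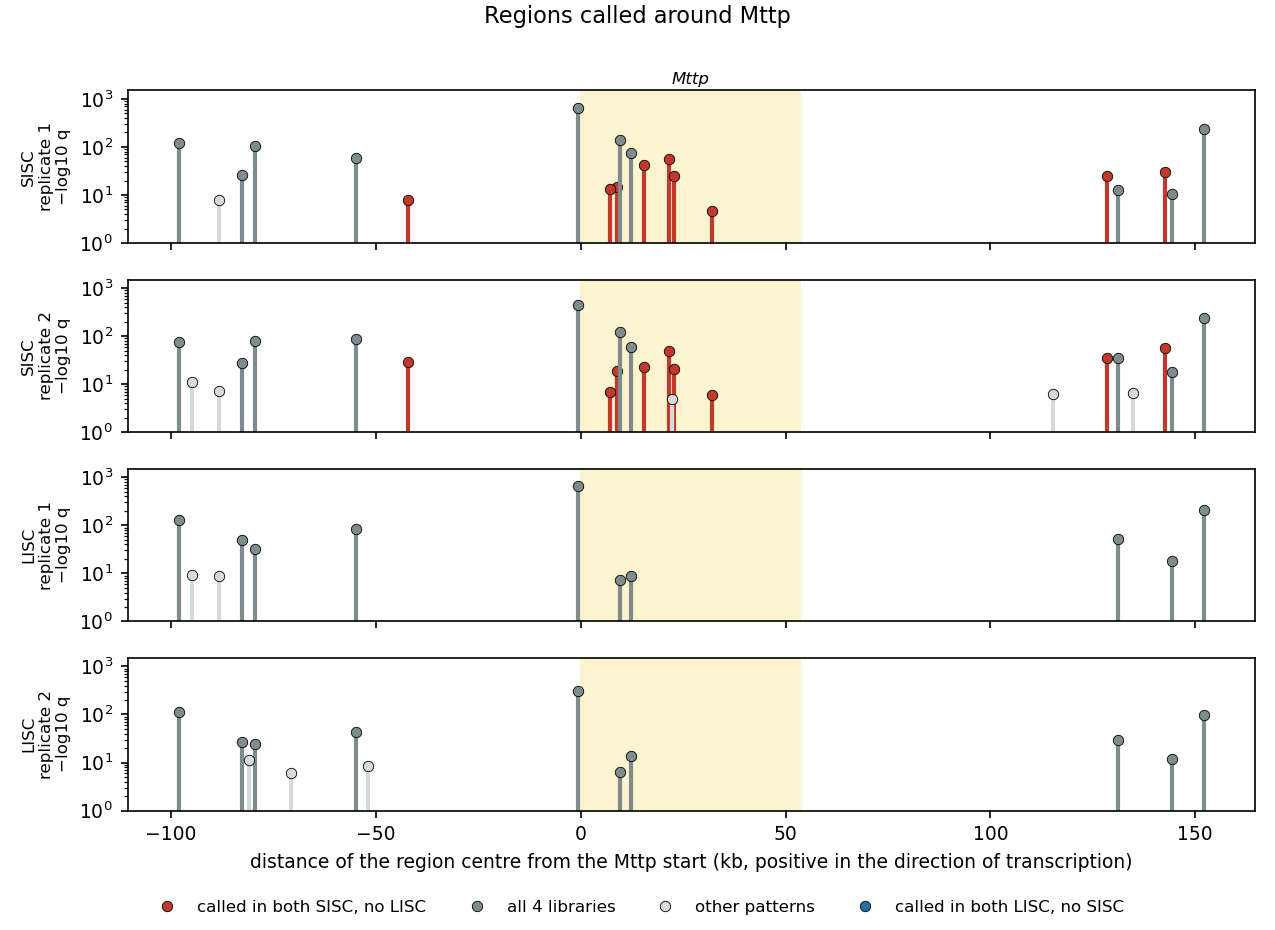
Regions around Mttp by distance from its start in kb (horizontal axis, in the direction of transcription) and by the authors' −log10 q in each library (vertical panels, log scale), coloured by pattern. Of the 9 regions 6.97 to 31.8 kb into the gene, 8 and 9 appear in the SISC libraries and 2 and 2 in the LISC libraries, while the start region appears in all 4.

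Across the genome, the protein-coding genes whose 7 window counts (regions in each library, in all 4, SISC-only and LISC-only) were closest to those of Mttp were Myrfl and Rdh12, whose absolute differences summed to 4 regions each over the 7 counts, from 4 libraries. Gcnt2 followed at 5, tied with Siglec15 and Ubl4b and taken first by name. Rdh12, for instance, had 20 and 24 regions in SISC and 13 and 13 in LISC. These genes were picked for this likeness, so their counts describe it and test nothing.

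Apob encodes the structural protein of the chylomicron. Its window holds no other protein-coding gene, and all 18 of its regions are nearest to it. The start region, chr12:7977071-7978864, had a −log10 q of 167 and 139 in SISC and 164 and 50.8 in LISC, and was called in every library, with summits 1011 and 1036 bases after the start in SISC and 989 and 1006 bases after it in LISC. Regions numbered 12 and 12 in SISC and 8 and 11 in LISC, so the groups do not overlap but differ by as little as 1. The share of all genes with such an order is not given here. Of the 18, 5 were SISC-only and 2 LISC-only, and 5.22% of all genes had at least as many SISC-only regions.

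The 2 kinds lay on opposite sides of Apob. All 5 SISC-only regions were before the start, at 5.38 to 71.9 kb, and both LISC-only regions were beyond the gene, at 54.0 and 65.8 kb. Nearest to the start was chr12:7971731-7972245 (−log10 q of 16.2 and 16.1 in SISC), followed by chr12:7958021-7958385 (17.0 and 7.24), chr12:7950201-7950652 (14.0 and 5.13), chr12:7909628-7910785 (19.1 and 23.6) and chr12:7905385-7905691 (32.2 and 13.4). The LISC-only regions were chr12:8070800-8071184 (11.6 and 11.4 in LISC) and chr12:8082623-8083201 (11.5 and 10.5 in LISC). Close to these, chr12:8089561-8090550 was called in all 4 libraries with 20.1 and 29.3 in SISC and 32.8 and 82.0 in LISC, a rank difference of -28.6 points that came to -48.6 with LISC replicate 1 left out and to -8.97 with LISC replicate 2 left out. The excess at Apob was lost under 2 alternatives: SISC-only minus LISC-only regions came to 3, to 0 without LISC replicate 1, and to -1 when each list was limited to its 41721 strongest peaks.

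Apoa1, the main protein of HDL, Apoc3, an inhibitor of lipoprotein lipase, and Apoa4, a chylomicron protein of the small intestine, lie together on chromosome 9. Their joint window held 17 and 21 regions in SISC and 13 and 13 in LISC. Both SISC libraries were above both LISC libraries, again without the share over all genes. Of 24 regions 6 were SISC-only and 2 LISC-only, both of these inside the adjoining gene Sik3, and 2.60% of all genes had at least as many SISC-only regions as the 6 around Apoa4. Among the 8 regions that all 4 libraries called, 6 ranked higher in both SISC libraries than in both LISC libraries and 0 the reverse, beside 30.4% and 25.4% of all regions called in all 4. Ranks here are by −log10 q. Over the lipid windows together the order turned when ranked by fold, with 21 higher in SISC and 25 in LISC. The shares of all regions ordered each way by fold are not given here, so this turn has no background beside it.

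The 3 genes differed at their ends. Apoa4 had a SISC-only start region of 1275 bp, chr9:46240450-46241724, with a −log10 q of 29.6 and 25.4, whose summits lay at -120 and -33 bases from the start, within the printed stretch. A further SISC-only region, chr9:46241873-46242245 (23.6 and 7.64), lay 1.03 kb inside the gene. Apoa1 had no region over its start in any library. Its finish was covered in all 4 by chr9:46229669-46230910, with a −log10 q of 210 and 216 in SISC and 180 and 121 in LISC, and 1.24 kb before its start lay the SISC-only region chr9:46226978-46227387 (22.7 and 14.9). Apoc3 had a region at its upper end, chr9:46235056-46236061, with 58.4 and 32.2 in SISC and 20.0 and 13.7 in LISC. It was called in every library, but its percentile was 47.8 and 25.3 in SISC and 15.9 and 13.2 in LISC, a difference of 21.9 points.

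The strongest of the 30 SISC-only regions was in this cluster but outside its genes. It was chr9:46206752-46207791, 1040 bp wide and inside Sik3, 20.8 kb before the Apoa1 start, with a −log10 q of 105 and 129. Over all 30 the −log10 q ranged from 4.59 to 105 in SISC replicate 1 and from 5.13 to 129 in SISC replicate 2. The remaining SISC-only regions here were chr9:46186460-46186728 (12.6 and 13.4), inside Sik3, and chr9:46224117-46224554 (47.1 and 42.2), across an end of Sik3. They lay 41.9 and 4.08 kb from the Apoa1 start. The LISC-only regions were chr9:46145807-46146396 (14.3 and 5.14 in LISC) and chr9:46184478-46184947 (23.5 and 14.5 in LISC).

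**Figure D4:**
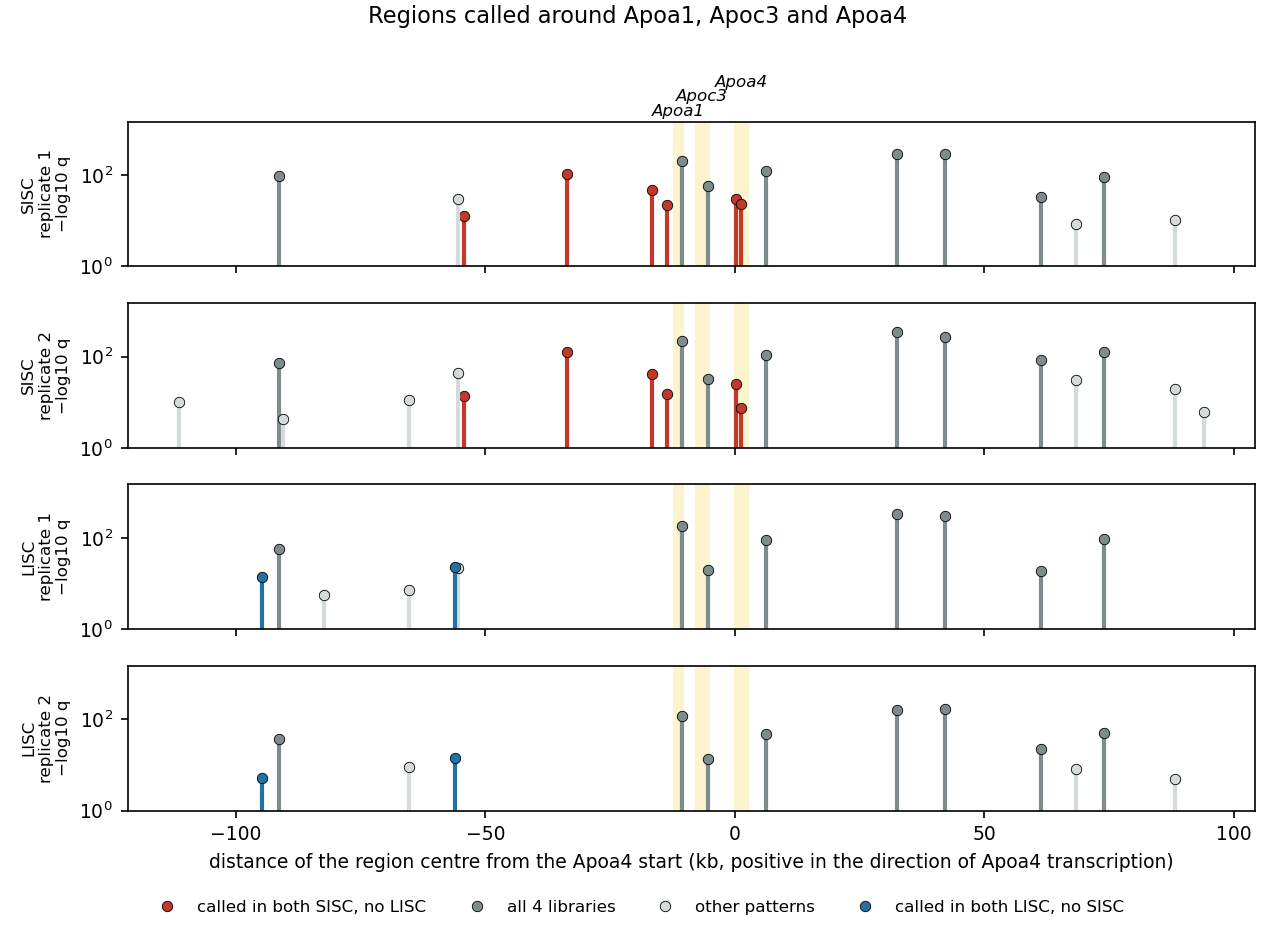
Regions around the Apoa1-Apoc3-Apoa4 cluster by distance from the Apoa4 start in kb (horizontal axis, in the direction of Apoa4 transcription) and by the authors' −log10 q in each library (vertical panels, log scale), coloured by pattern. The start of Apoa4 carries peaks in both SISC libraries (29.6 and 25.4) and none in either LISC library, and the Apoa1 finish is covered in all 4.

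The 87 regions called in all 4 libraries can be compared in strength by their percentile of −log10 q among the 57829 regions that all 4 libraries called, the same set in each. Both SISC percentiles were above both LISC percentiles in 33 of the 87 (37.9%), beside 30.4% of all such regions. Both LISC percentiles were above both SISC percentiles in 19 (21.8%), beside 25.4%, and the groups overlapped in 35. These shares lie near their backgrounds. By fold enrichment the order was the other way, as given above, with no background by fold beside it. Without SISC replicate 1, 43 ranked higher in SISC and 32 in LISC. The median difference, SISC minus LISC, was 1.11 points around the lipid genes and 0.72 over all regions. With group means at least 20 points apart, 9 of the 87 were higher in SISC, beside 8.18%, and 6 were higher in LISC, beside 10.1%.

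The extremes of this comparison were the Mttp region described above, at 70.1 points, and a region between Dgat2 and Mogat2 at -71.0 points. The second of these, chr7:99199968-99201018, lay 17.3 kb from the Dgat2 upper end and had a −log10 q of 5.67 and 38.0 in SISC and 272 and 148 in LISC. Its percentile was 0.954 and 30.2 in SISC and 87.1 and 86.1 in LISC, so both LISC libraries ranked it far above both SISC libraries, although the SISC replicates were wide apart. The region 14.1 kb before Fabp1 came next on that side, with 38.8 and 48.1 in SISC and 88.1 and 89.2 in LISC, a difference of -45.2 points and -26.1 points by fold. The Fabp1 locus therefore held a start and a distal region called in SISC alone and, between them, a region called in every library that ranked higher in LISC.

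**Figure D5:**
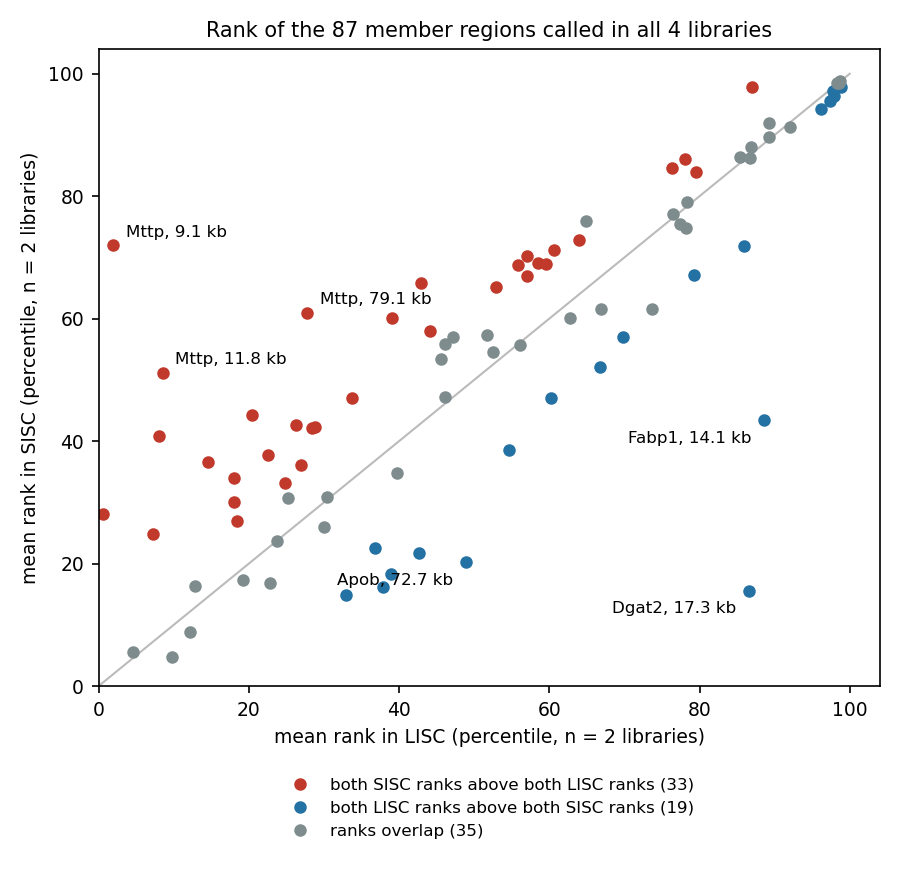
Mean percentile of −log10 q in the SISC libraries (vertical axis) against the LISC libraries (horizontal axis) for the 87 regions called in all 4 libraries, with 1 point per region, coloured by whether both percentiles of 1 group exceed both of the other, and a diagonal where the groups are equal. Points at 72.0 in SISC and 1.92 in LISC (Mttp) and at 15.6 in SISC and 86.6 in LISC (between Dgat2 and Mogat2) lie farthest from it.

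The SISC-only regions of the lipid windows had a median width of 524.5 bp, beside 457 bp for all SISC-only regions, and 10% of them lay within 1 kb of a gene end, beside 7.15%. The 9 LISC-only regions had a median of 416 bp, beside 484 bp for all LISC-only regions. Inside the body of 1 of the 10 genes lay 9 of the 30 SISC-only regions (6 in Mttp, 2 in Apoa4 and 1 in Fabp1) and 1 of the 9 LISC-only regions (in Dgat2). These counts have no share of all regions inside genes beside them, so they show no preference for gene bodies. The 100 kb limit falls at arbitrary places. Just inside it lay the SISC-only region near Slc39a4 (98.1 kb from Dgat1, −log10 q of 65.0 and 45.5) and the LISC-only region near Fabp1 (97.3 kb). The nearest region outside was called in all 4 libraries for Dgat1. For Fabp1 it was called in SISC replicate 2 alone and lay on the opposite side of the gene.

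Other genes of the same pathway were taken as a list of 18, all of them in the gene table. SISC-only regions outnumbered LISC-only ones around 12 and LISC-only regions around 4, with 2 equal and a median difference of 2, beside 34.5% and 32.2% of all genes and a median of 0. Rbp2, the cellular retinol binding protein of enterocytes, was the 1 gene of the 18 with a SISC-only gene end (1.38% of all genes), and it had 5 SISC-only and 0 LISC-only regions within 100 kb. Abcg5 and Abcg8, the paired sterol exporters, share a window and had 6 and 1 each, Sar1b, a GTPase of chylomicron export, had 5 and 1, and Apoa5, which shares the chromosome 9 window, had 6 and 1. Slc27a4, a fatty acid transport protein, and Creb3l3, a transcription factor of lipid metabolism, each had 3 and 0. Abcg5 and Abcg8 share regions with each other, and Apoa5 shares its SISC-only regions with Apoa1, Apoc3 and Apoa4. The 18 genes are therefore not 18 separate observations, and the list is not separate from the lipid genes above.

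The list was not uniform. Soat2, which esterifies cholesterol for chylomicrons, had 3 SISC-only and 6 LISC-only regions, Acsl5, an acyl-CoA synthetase, 3 and 4, Pla2g12b, which acts in lipoprotein secretion, 2 and 4, and Cd36, a fatty acid receptor, 2 and 3. Gene ends had a region in all 4 libraries for 12 of the 18, beside 62.1% of all genes, and in none for Cd36, Creb3l3 and Fabp6. The list counts 15 and 15 called gene ends in SISC and 13 and 13 in LISC. The share of all genes with a called end in each library is not given here, so these counts have no background.

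Markers of other cells were read by the same rule, because a sort can hold descendants of the stem cells. Of 7 enterocyte genes outside lipid handling (Alpi, Sis, Lct, Treh, Anpep, Slc5a1 and Krt20), gene ends were called for 6 and 6 in SISC and 6 and 6 in LISC, with Lct at 0 in every library. More SISC-only regions lay around 4 of these, more LISC-only regions around 0, and the median difference was 1, against 3 for the lipid genes; over all genes the shares were 34.5% and 32.2% and the median 0. The 4 Paneth genes Lyz1, Defa24, Mmp7 and Itln1 had called ends for 3 and 3 in SISC and 2 and 3 in LISC, with Defa24 at 0 in all. Their median difference was 3.5 SISC-only regions, but they were not uniform. SISC-only and LISC-only regions numbered 6 and 0 around Defa24, 5 and 0 around Lyz1, 3 and 1 around Mmp7 and 1 and 2 around Itln1. Of 4 goblet genes 3 had called ends in each library (median difference -0.5), of 3 enteroendocrine genes 2 in each (0), and of the liver genes Alb and Ttr 1 in each (-1.5). Stromal and endothelial genes had 2 and 2 of 4 in SISC and 2 and 1 in LISC. Stem cell genes had 5 and 4 of 5 in SISC and 3 and 4 in LISC, with more SISC-only regions around 3, more LISC-only regions around 0 and a median difference of 1; Olfm4, itself a small-intestinal marker, had 14 and 0. The 3 immune genes had no called end and a median difference of -2. The counts of called ends per library again stand without the share of all genes. The part of such other cells in the lipid gene counts was not tested.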

How the data were processed

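ATAC-seq peaks of 4 libraries (2 SISC, 2 LISC) were used. The tools named, per the submitters' processing notes, are MACS2 2.2.7.1, Bowtie2 2.3.4.1, cutadapt 3.4, bedtools and Picard, with mm10 as the build. Not given in the sources used here are the calling threshold, any shift of reads for the transposase and the treatment of duplicates. The authors deposited 1 peak list per library with a fold enrichment (a ratio to local background), −log10 p and −log10 q at the summit, and a score that is 10 times the −log10 q in nearly every peak. Longer lists and deeper libraries call more weak regions, and depth is unknown, so no interval for counting error is given.

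Peaks overlapping by at least 1 bp were merged, and a library has a region when 1 of its peaks lies in it. Genes came from RefSeq on GRCm38.p6, as spans without strand; strand and start came from the promoter entries. A gene end is called when a region lies within 1 kb. Where a library had several peaks in a region, its strongest counts. Counts are set beside all regions or genes, and values per library were compared by an exact two-sided permutation test. No count model fits peak lists. Named are the 10 genes; other absorption genes with a group-only gene end or at least 3 group-only regions in 1 direction; each gene's group-only and gene-end regions; and the 3 genes most like Mttp. The regions singled out by rank were chosen after their values were seen. The genes and lists were chosen with earlier results of these data known, and some marker genes are not reported here. Merging and pattern calls were tested on simulated data. Python 3.11.15, numpy 2.4.6, pandas 2.3.3 and matplotlib 3.10.9 were used.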

Additional observations from a re-analysis of the deposited data

How the results depend on the processing

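Over 16 alternatives, of which leaving out the Dgat1 window, the single-gene counts and the rank differences of single regions were added after the data were seen, SISC-only regions outnumbered LISC-only ones in each of those that gave both counts; the other gene-end distances, ranking by fold and the replicate block give no such counts. With each list limited to its 41721 strongest peaks there were 13 SISC-only and 3 LISC-only regions (difference 10), 12 regions ranked higher in SISC and 11 in LISC, and 0 genes had a SISC-only end; weak peaks are left out by construction. Within 10 kb the counts were 12 and 1 (difference 11), with 11 ranked higher in SISC and 6 in LISC; within 50 kb there were 4 LISC-only regions. Where the nearest gene end belonged to 1 of the 10 genes, they were 16 and 3 (difference 13), with 13 ranked higher in SISC and 11 in LISC. Ranking by fold left 21 higher in SISC; the cause was not tested. Without 1 library each, SISC-only regions ranged from 34 to 48, LISC-only regions from 9 to 18, their difference from 16 to 39, the regions per library by which SISC exceeded LISC from 17.5 to 36.5, those ranked higher in SISC from 40 to 48 and those ranked higher in LISC from 27 to 32; fewer libraries make each rule easier to meet. Without the Dgat1 window there were 26 and 8. None of the counts in this paragraph has the share of all regions or genes under the same setting beside it.

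Single genes reversed in 3 cases: Apob gave -1 with the strongest peaks, and Dgat2 gave 1 with each list cut to the shortest (83443 peaks) and 1 without SISC replicate 1; the cause was not tested. Fabp2, with a difference of 0, ranged from -2 to 2 without 1 library each. With the replicate number as a block the difference in regions per library stayed 25.5, with an exact permutation p of 0.5, the smallest 2 pairs allow; the difference was 16 between the libraries numbered 1 and 35 between those numbered 2. Nothing in the labels says that a number pairs the libraries. Depth limits these results, since an uncalled region may be open but weakly covered.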

Other observations

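Several neighbours of the lipid genes had regions that all 4 libraries called at different ranks. Those given were picked for a difference of at least 20 points, so the values describe them and test nothing. Others past that limit were higher in SISC inside 4931429L15Rik (23.9 points), nearest to Thnsl2 (22.9) and inside Bop1 (21.0). Higher in LISC were a region inside Dgat2 (-21.7) and one nearest to Apob (-20.9). Inside Adh7, an alcohol dehydrogenase gene in the Mttp window, chr3:138222559-138223335 had a −log10 q of 102 and 81.0 in SISC and 31.5 and 23.8 in LISC, and ranked 33.2 points higher in SISC. Nearest to Rpl34-ps1, in the Fabp1 window, chr6:71115158-71115826 had 47.6 and 50.9 in SISC and 14.3 and 9.65 in LISC, a difference of 32.8 points. Nearest to Scrt1, in the Dgat1 window, chr15:76518147-76519179 had 26.0 and 40.2 in SISC and 5.86 and 4.29 in LISC, a difference of 27.5 points. A region inside the reach of Mttp but nearest to Dapp1, chr3:138011692-138012828, ran the other way, with a difference of -20.6 points. Its −log10 q, 12.5 and 35.3 in SISC and 52.1 and 29.8 in LISC, overlaps between the groups. Its percentile, by which groups are compared here, was 8.73 and 27.9 in SISC and 42.1 and 35.7 in LISC.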
